A study of Homo sapiens with 8 samples.

Results

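HNRNPDL, PLRG1 and CELF2 are 3 genes whose products process other RNAs, and their own transcripts lay under regions listed by the study's authors in an eIF4G2 immunoprecipitation series. They were chosen by name and from the measured regions themselves, so their presence in a list is a description and carries no test. A region was given to a gene when it lay inside, over an end of, or across at least 1 of its Ensembl transcripts. By this rule the 3 genes held 7 regions, out of 861 Ensembl genes with a region in either list. HNRNPDL had 4 regions and PLRG1 had 2, all in the control list, and CELF2 had 1, in the overexpression list.

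The cells were IHCF, an immortalized human cardiac fibroblast line. They received lentivirus either to overexpress eIF4G2, in its full-length form, or with a scramble sequence as control, so all groups carry a lentiviral vector. Total RNA and the RNA pulled down with an antibody to eIF4G2 were each sequenced in both conditions, which makes 8 libraries in 4 groups of 2 biological replicates. The labels do not say whether the line or the infected cells come from 1 clone. The deposited data used here are 2 lists of regions on GRCh38, 1 for each condition, with 1224 control and 1986 overexpression regions. They cover the chromosomes unevenly: 1185 control and 491 overexpression regions lay on chromosome 4, and 29 and 121 on chromosome 10. The control list had no region on chromosome 18. A gene's place in 1 list alone must be read beside these counts. The assignment of the lists to a condition comes from the table names, which also hold the name of another RNA-binding protein, MOV10. The labels name an eIF4G2 antibody for all 8 libraries and do not mention MOV10, so which protein's binding the lists show is uncertain. The lists hold positions only, with no strand, read count, score or value per replicate. How many reads support a region is not known, so depth cannot be weighed. A gene found in 1 list alone could not be checked in replicates, and the absence of a region does not show the absence of binding. Of 15 fibroblast, 10 cardiomyocyte and 9 endothelial or leukocyte marker genes, 0 had a region. Only PDGFRA and KDR of these lie on chromosome 4, only VIM on chromosome 10, and none on chromosome 18. The labelled cell type therefore could not be checked from the lists.

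Pre-mRNA splicing removes introns in the spliceosome, whose catalytic core is held together by the PRP19 complex. RNA-binding proteins of the hnRNP and CELF families bind pre-mRNAs beside exons and steer which exons are kept, and in the cytoplasm many of them also affect mRNA stability and translation. Several hnRNP and CELF genes are themselves alternatively spliced, and the level of some of these proteins is set through their own transcripts. eIF4G2, also called DAP5, is a member of the eIF4G family of translation factors and, unlike eIF4G1, does not bind eIF4E, the protein that holds the mRNA cap.

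HNRNPDL encodes an hnRNP that binds AU-rich RNA and is a close relative of HNRNPD, also known as AUF1. The gene (ENSG00000152795) lies on the minus strand of chromosome 4, and its RefSeq record runs from 82422564 to 82430462, a span of 7899 bp. The 4 control regions lay one behind the other over nearly the whole gene. In transcript order, the first spanned 82430356 to 82430785 (430 bp) and the next 82427131 to 82430140 (3010 bp). They were followed by 82424336 to 82426700 (2365 bp) and 82423201 to 82423905 (705 bp). Between them were gaps of 215, 430 and 430 bp. The regions of 3010 and 2365 bp ranked 25 and 58 in width among 1185 control regions of chromosome 4. The regions summed to 6510 bp, of which 6187 bp fell inside the RefSeq span, 78.3% of it. The last 637 bp of the RefSeq span at the 3′ end carried no region. The overexpression list had no region over HNRNPDL, and its nearest one lay 46.6 kb away, at the start of HNRNPD.

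The HNRNPDL regions met different transcripts. Only transcripts met by at least 1 region were named, so they need not be all of the gene's. The control table named 10 Ensembl transcripts of the gene, in 3 groups by their 3′ end. Of these, 3 ran to between 82422565 and 82422569, 6 ended between 82424625 and 82424631, and 1 ended at 82425583. The 2 wide middle regions overlapped all 10 transcripts. The region nearest the 3′ end (705 bp) lay inside the 3 transcripts with the far 3′ end and met none of the other 7. The region at the 5′ end (430 bp) met the 4 transcripts that start between 82430399 and 82430462, and none of the 2 that start at 82430225 or the 4 that start between 82429397 and 82429447. Regions covered 78.4% of the span of the longest transcript, ENST00000295470, and up to 91.1% of the shorter ones (ENST00000349655). Spans include introns, and exon positions were not used here.

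The 5′ region of HNRNPDL covered the space between this gene and ENOPH1, an enzyme gene of the methionine salvage pathway that starts in the opposite direction at 82430590. Both genes share this region in the table, and with no strand recorded its RNA cannot be assigned to either. The 127 bases between the RefSeq starts of the pair lie wholly within it and belong to neither gene. They are shown, together with the 250 bases before the start of PLRG1, a start that no region of either list met. Both are given 5′ to 3′ on the minus strand of GRCh38.p14 from RefSeq, and capitals mark matches to 4 core promoter motifs.

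HNRNPDL, chr4:82430463-82430589: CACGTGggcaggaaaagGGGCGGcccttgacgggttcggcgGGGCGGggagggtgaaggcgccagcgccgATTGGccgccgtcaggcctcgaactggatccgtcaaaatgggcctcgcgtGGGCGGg

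PLRG1, chr4:154550401-154550650: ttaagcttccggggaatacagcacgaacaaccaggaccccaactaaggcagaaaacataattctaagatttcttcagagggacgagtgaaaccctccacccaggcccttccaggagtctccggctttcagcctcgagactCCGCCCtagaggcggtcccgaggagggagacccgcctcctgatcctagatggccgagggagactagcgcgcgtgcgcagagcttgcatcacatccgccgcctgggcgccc

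Motifs were searched on both strands. The GC box was read as GGGCGG. The CCAAT box was read by the letters of its name. The E-box was read as CACGTG and the TATA box as TATAAA. The marked matches do not overlap each other. The HNRNPDL stretch held 3 GC boxes, 1 CCAAT box (read as ATTGG on this strand), 1 E-box and 0 TATA boxes. In the same 127 bases before 35116 RefSeq starts, these motifs occurred in 34.7%, 21.2%, 4.06% and 5.91%. Its GC content was 71.7%, against a median of 59.8% over those windows, and 23.6% of them were as rich or richer. It held 16 CpG pairs, against a median of 6. The PLRG1 stretch held 1 GC box, a motif present in 42.6% of windows of 250 bases, and 0 of the other motifs, which 32.0%, 6.34% and 10.7% of such windows hold. Its GC content of 60.0% was near the median of 58.0%. These matches describe the letters and show no binding.

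HNRNPD, the paralogue, lies on the same strand, 48.6 kb beyond the 3′ end of HNRNPDL, and had regions in both lists. Its 4 control regions summed to 8600 bp and its 5 overexpression regions to 3935 bp. Of these, 7491 and 2430 bp fell inside its RefSeq span. The overexpression region at its 5′ end (1505 bp) lay wholly before the RefSeq start. All 4 control regions shared bases with an overexpression region, and all 5 overexpression regions with a control region. For HNRNPDL the corresponding count was 0 of 4, for PLRG1 0 of 2 and for CELF2 0 of 1. Over all control regions of chromosome 4 the share that met an overexpression region was 25.5%, and over all overexpression regions of chromosome 10 the share that met a control region was 9.92%. Both paralogues had a control region at their 5′ end that reached a gene of the opposite strand, ENOPH1 for HNRNPDL and the divergent transcript HNRNPD-DT for HNRNPD. In HNRNPD the remaining control regions lay between 10.5 and 17.8 kb from the gene start, with 9890 bp free of regions before them. HNRNPDL had no gap wider than 430 bp.

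**Figure D1:**
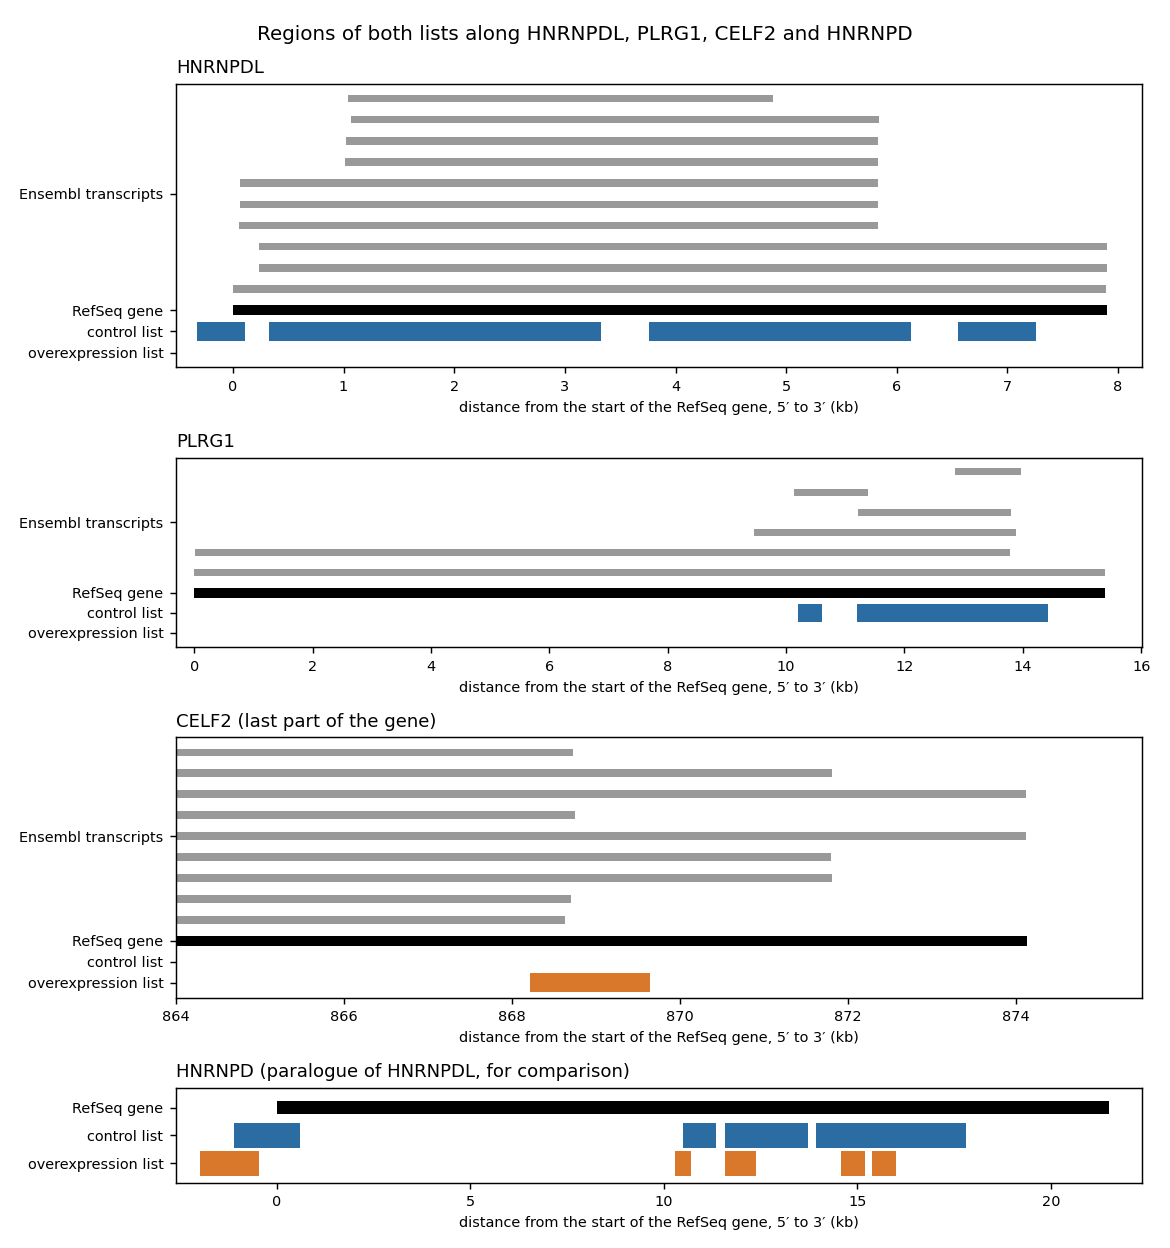
Regions of the control list (blue) and the overexpression list (orange) along HNRNPDL, PLRG1, the last part of CELF2 and HNRNPD, by distance from the start of the RefSeq gene in kb, 5′ to 3′; the black bar is the RefSeq gene and grey bars are the Ensembl transcripts named in the tables. HNRNPDL and PLRG1 have blue bars alone, CELF2 has 1 orange bar near the gene's 3′ end, and HNRNPD has both colours.

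PLRG1 encodes a WD40 repeat protein, a core subunit of the PRP19 complex of the spliceosome. The gene (ENSG00000171566) lies on the minus strand of chromosome 4 from 154535005 to 154550400 and is 15396 bp long. Its wide control region ran from 154535981 to 154539205 (3225 bp), and its narrow one from 154539801 to 154540200 (400 bp), with 595 bp between them. Together they covered 3625 bp, 23.5% of the span. Both lay in the 3′ part of the gene: the first 10.2 kb held no region, and 976 bp at the 3′ end were also free. The wide region was the 18th widest of 1185 control regions of chromosome 4, and the narrow one ranked 776.

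The control table named 6 PLRG1 transcripts, of which 2 begin at the gene start and the other 4 are short. The wide region met all 6 and the narrow one met 4. Here too, only transcripts met by a region were named. The longest transcript, ENST00000499023, held the wide region entirely. The other long transcript, ENST00000302078, ends at 154536619, and the region continued 638 bp past that end. Among the listed transcripts, the 451 bp of the region nearest the 3′ end lay under the longest one alone. Of the 4 short transcripts, 2 lay completely within the wide region.

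PLRG1 stood alone on its stretch of chromosome 4. Within 1000 kb on either side lay 12 other protein-coding genes, and 0 of them had a region in either list. The nearest other control region was 1195 kb away, over TRIM2, and the nearest overexpression region 1907 kb away, over TMEM154. HNRNPDL differed in this respect: of 13 other protein-coding genes within 1000 kb, 8 had a control region and 4 an overexpression region. The 8 were COPS4, COQ2, ENOPH1, HELQ, HNRNPD, LIN54, SCD5 and SEC31A, and the 4 were COPS4, COQ2, HNRNPD and SCD5. Over all 770 protein-coding genes of chromosome 4, 43.1% had a control region and 27.3% an overexpression region.

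CELF2 encodes a CUG-binding protein that regulates alternative splicing, including that of muscle and heart transcripts, and also mRNA stability and translation. The gene (ENSG00000048740) lies on the plus strand of chromosome 10, from 10462550 to 11336675 in RefSeq, a span of 874126 bp. Its region in the overexpression list ran from 11330761 to 11332195 (1435 bp), 868 kb from the RefSeq start and 4480 bp before the RefSeq end. It covered 0.164% of the span. The width ranked 42 among 121 overexpression regions of chromosome 10.

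The table named 9 CELF2 transcripts, and all 9 were met by the region. Of these, 4 ended inside it, between 11331186 and 11331299, so that the region continued 896 to 1009 bp past their ends. The other 5 ran on to 11334353 or further and held the region entirely. The starts of the 9 transcripts are spread from 10798397 to 11165484, so transcripts with different 5′ ends met the same region. The RefSeq antisense gene CELF2-AS1 (11316833 to 11344674) also spans the region, whereas the Ensembl transcript of CELF2-AS1 in the table ends before it. Without strand, RNA of CELF2 and of CELF2-AS1 cannot be told apart here. The nearest control region on chromosome 10 was 2309 kb away from the gene, over FRMD4A. The control list held only 29 regions on the whole of chromosome 10, so wide distances are common there.

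Along the longest transcript hit, with 0 at its start and 1 at its end, the midpoints of the HNRNPDL regions stood at -0.0137, 0.231, 0.626 and 0.875. Those of PLRG1 stood at 0.676 and 0.832, and that of CELF2 at 1.00. The HNRNPDL regions ran from the gene start to 0.920 of this transcript, those of PLRG1 lay in its last part, and that of CELF2 lay at an annotated 3′ end. In the control list on chromosome 4, 38.8% of 1187 pairs of a region and a named gene lay in the last 10% of the transcript or beyond, and 131 pairs in the first 10% or before it. On the longest transcript hit, none of the 6 regions of HNRNPDL and PLRG1 had its midpoint in that last 10%. On other transcripts this changed: the wide PLRG1 region stood at 0.929 of ENST00000302078 and at 2.13 of the short ENST00000507125, and the 2365 bp HNRNPDL region at 1.02 of ENST00000514511. In the overexpression list on chromosome 10 the share in the last 10% was 46.4% of 140, and the CELF2 region was one of these.

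**Figure D2:**
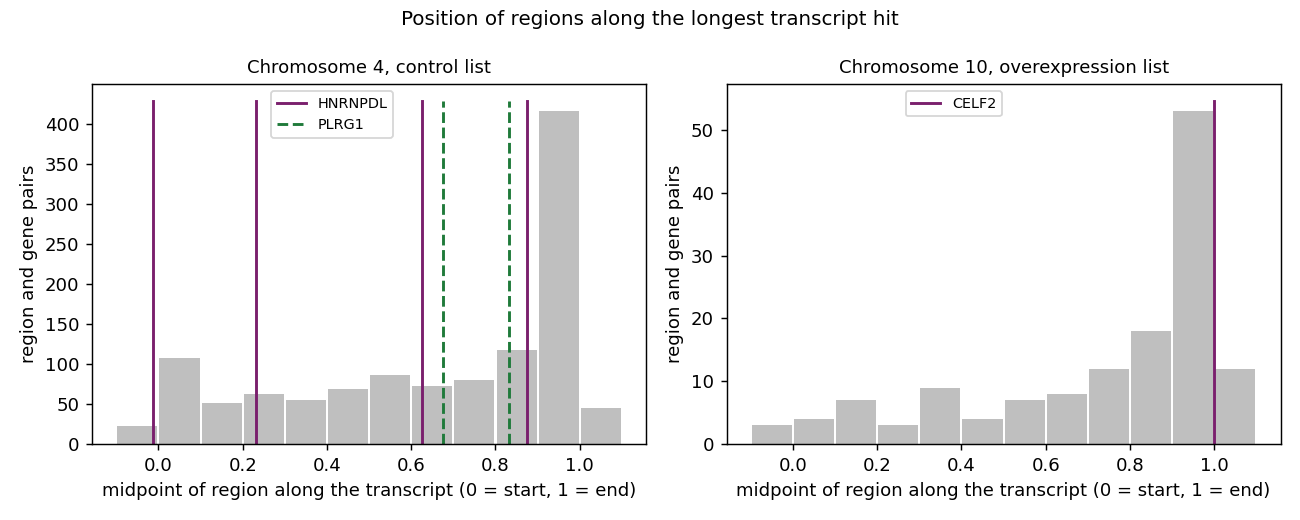
Midpoints of regions along the longest transcript hit (0 is the start and 1 the end; midpoints further out are counted in the outermost bars), as numbers of region and gene pairs in steps of 0.1, for the control list on chromosome 4 and the overexpression list on chromosome 10. Lines mark HNRNPDL (solid) and PLRG1 (dashed) on the left and CELF2 on the right; the tallest bar in both panels is the one from 0.9 to 1.

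Listing a gene was common on chromosome 4 and rare on chromosome 10, which sets what the lists can say about the 3 genes. On chromosome 4, 43.1% of 770 protein-coding genes had a control region, 27.3% an overexpression region, 19.1% a region in the control list only and 3.25% in the overexpression list only. HNRNPDL and PLRG1 belong to the 19.1%. They were chosen for having a region, and of the 332 genes with a control region, 147 were in the control list only. On chromosome 10, 9.13% of 734 protein-coding genes had an overexpression region and 4.09% a control region. A region in the overexpression list only was held by 7.22%, including CELF2. Of the 67 genes with an overexpression region, these were 53.

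Where the genes stood in covered length differed. With 6510 bp, HNRNPDL ranked 37 among 381 named genes with a control region on chromosome 4, and PLRG1 ranked 105 with 3625 bp. The median over 332 protein-coding genes was 2330 bp. By the share of the gene span under regions, HNRNPDL ranked 7 and PLRG1 34 of these 332, against a median share of 3.42%. HNRNPDL is also short, since the median length of these genes was 56870 bp. CELF2 ranked 59 of 77 named genes of chromosome 10 in the overexpression list by covered length. By covered share it was 65 of 67 protein-coding genes, of which 2 had no region inside the RefSeq span.

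Genes with as much covered length as HNRNPDL in the control list were mostly in both lists. Of the other 34 protein-coding genes of chromosome 4 with at least 6510 bp, 32 also had an overexpression region (94.1%). The 2 exceptions besides HNRNPDL were ANXA5, a phospholipid-binding annexin, and LYAR, a nucleolar protein. Of the 297 genes with less, 153 had an overexpression region (51.5%). For PLRG1 the shares were 77 of 97 genes with at least 3625 bp (79.4%) and 108 of 234 with less (46.2%). For CELF2, 14 of 60 chromosome 10 genes with at least 1435 bp in the overexpression list had a control region (23.3%), and 0 of 6 with less. All of this describes the listed regions; no test was possible with 1 list per condition.

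**Figure D3:**
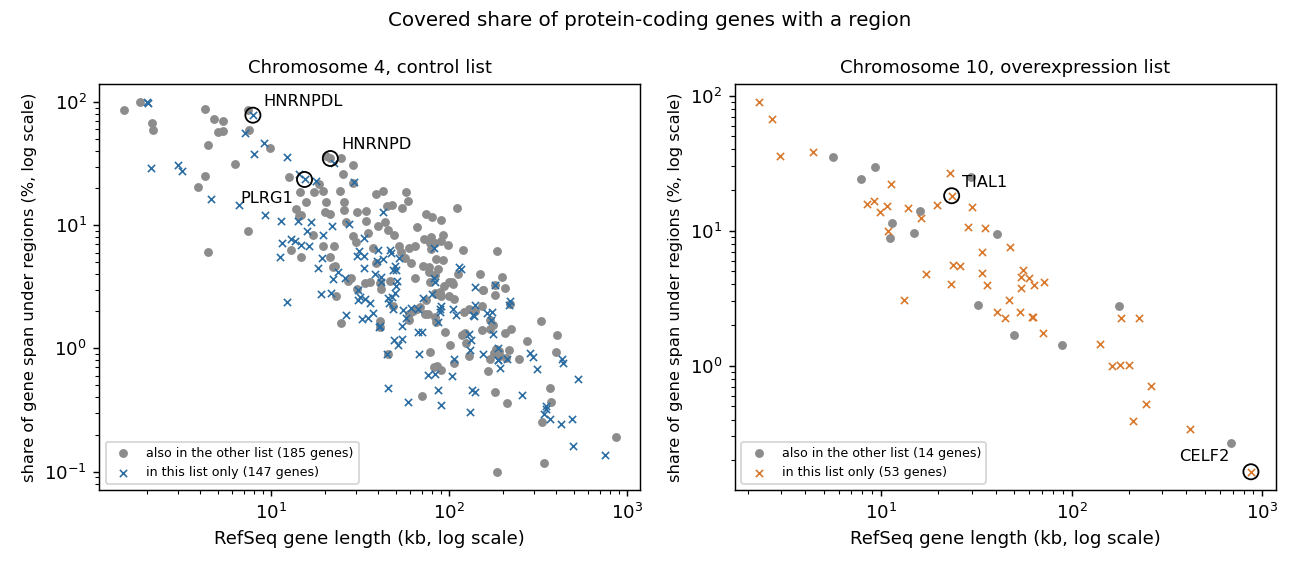
Share of the RefSeq gene span under regions (%, log scale) against gene length (kb, log scale) for protein-coding genes with a region on chromosome 4 in the control list (left) and on chromosome 10 in the overexpression list (right); grey circles are genes also in the other list, crosses genes in that list only, and 3 and 2 genes whose regions lie outside the RefSeq span are not drawn. HNRNPDL (78.3%) lies among the most covered genes of its length, below CCNA2 (86.6%), PLRG1 (23.5%) above the median of 3.42%, and CELF2 (0.164%) at the lower right as a very long gene with 1 region.

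By covered length, the protein-coding genes most like HNRNPDL among 146 others of chromosome 4 in the control list only were ANXA5 (6560 bp in 10 regions), AFAP1 (5985 bp in 5) and LYAR (7305 bp in 8). Their regions covered 22.3%, 3.30% and 31.8% of the gene, against 78.3% for HNRNPDL. These genes are longer, at 29035, 181149 and 22454 bp against 7899 bp, so equal covered length gives a smaller share. A high share was not particular to HNRNPDL in the control list only: UTP3 had 100% and MRFAP1 99.0%. Closest to PLRG1 were BMP2K (3640 bp in 4 regions), SNX25 (3445 bp in 8) and NOA1 (3860 bp in 4). Among 52 chromosome 10 genes in the overexpression list only, 8 had exactly the same 1435 bp as CELF2. CDH23, EIF3A and NMT2, in 1, 3 and 1 regions, are the first of these 8 by alphabet and no closer to CELF2 than the other 5. The likeness is the absolute log2 ratio of covered lengths within 1 list, and covered lengths take few values.

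Region boundaries of the 3 genes lay on fixed grids, as all regions of these chromosomes did. On chromosome 4 all starts and ends in both lists lay on multiples of 200 or 215 bp. At both ends, 47.3% of control regions lay on the 215 bp grid and 26.0% on the 200 bp grid. In the overexpression list these shares were 33.0% and 34.0%. On chromosome 10 both ends of all regions lay on multiples of 205 bp. Why the step sizes differ was not tested. The HNRNPDL regions of 2365, 3010 and 430 bp were 11, 14 and 2 steps of 215 bp. The 705 bp region began on the 200 bp grid and ended on the 215 bp grid. The wide PLRG1 region was 15 steps of 215 bp, the narrow one 2 steps of 200 bp, and the CELF2 region 7 steps of 205 bp. Widths therefore have a resolution of about 1 step, and 2 of the HNRNPDL gaps (430 bp) are 2 steps and the third (215 bp) is 1 step.

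Other RNA processing genes were read from 4 lists with 195 genes in all: hnRNP proteins, other splicing regulators, the spliceosome, and 3′ end formation with export. The lists are a selection and do not hold every gene that acts in RNA processing. On chromosome 4 lie 8 of the 195 genes, of which 7 had a control region and 3 an overexpression region. Without HNRNPDL and PLRG1 the counts were 5 and 3 of 6, against 43.1% and 27.3% of all protein-coding genes of that chromosome. HNRNPD, RBM47 and FIP1L1 were in both lists. The splicing regulator gene RBM47 had 1775 bp in the control and 1360 bp in the overexpression list. FIP1L1, a subunit of the cleavage and polyadenylation factor, had 2530 and 440 bp, in regions shared in part with LNX1 and an unnamed gene.

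Among the listed spliceosome genes of chromosome 4, PLRG1 shared its pattern with DHX15 and LSM6. DHX15, the helicase that takes spliceosomes apart, had 1 control region of 1000 bp, and LSM6, a subunit of the U6 snRNA ring, had 3 regions summing to 1430 bp. Neither had an overexpression region. RBM46, an RNA-binding protein of germ cells, had no region in either list. Being in the control list only was a pattern held by 19.1% of protein-coding genes of the chromosome, and by 147 of the 332 with a control region.

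On chromosome 10, CELF2 and TIAL1 were the 2 with a region among the 8 genes of the RNA processing lists. Both were in the overexpression list only. TIAL1, an RNA-binding protein that acts in splicing and in stress granules, had 4 regions summing to 5740 bp. Of these, 4266 bp fell inside its RefSeq span, 18.2% of it. HNRNPF, HNRNPH3, RBM17, RBM20, PRPF18 and CSTF2T had none. Without CELF2 the count was 1 of 7, beside 9.13% of protein-coding genes of the chromosome. On chromosome 18, where the control list has no region, SNRPD1, an Sm core protein (5130 bp), TXNL4A, a U5 snRNP protein (13010 bp), and THOC1, a subunit of the THO export complex (4760 bp, in regions shared in part with USP14) were listed under overexpression. These were 3 of the 4 listed genes, beside 60.0% of protein-coding genes there. CELF4, a relative of CELF2, was the listed gene without a region. The splicing regulator RBM10 on chromosome X had 1 overexpression region of 1630 bp.

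**Figure D4:**
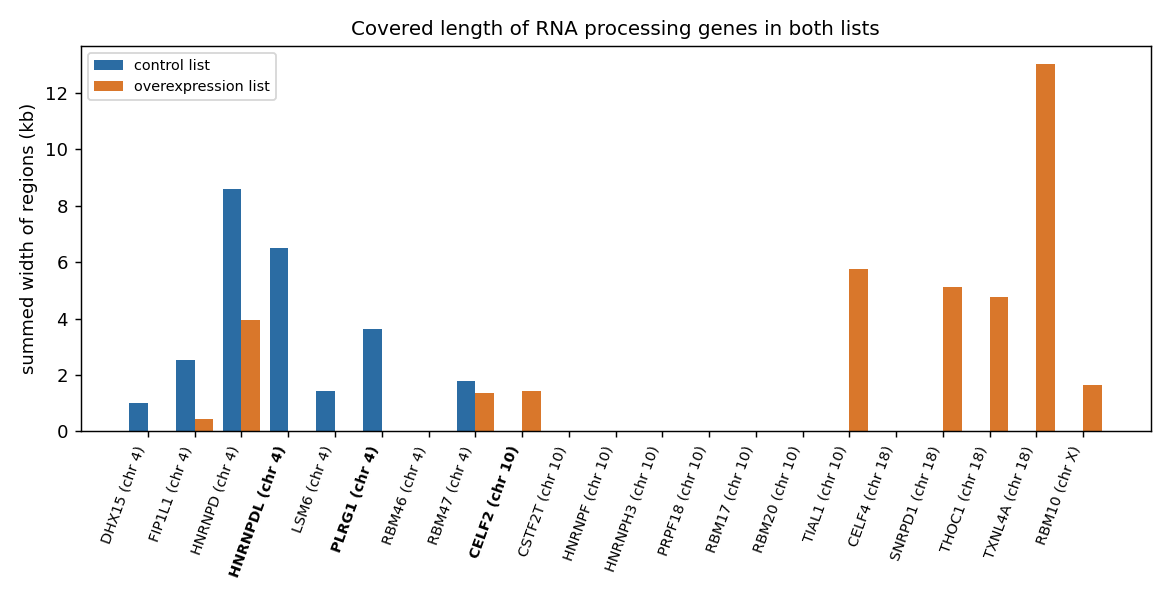
Summed width of regions (kb) in the control list (blue) and the overexpression list (orange). Drawn are the genes of the 4 RNA processing lists on chromosomes 4, 10 and 18, and RBM10 on chromosome X. HNRNPDL, PLRG1 and CELF2 are in bold. Among these listed genes, blue bars stand on chromosome 4 alone, HNRNPD (8600 bp) being the tallest and HNRNPDL (6510 bp) the next.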

How the data were processed

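RNA precipitated with an eIF4G2 antibody and total RNA were sequenced from IHCF cells, per the labels. Credit for upstream steps goes to the submitters' processing notes, which list Trimmomatic 0.36, HISAT2 2.1.0, bcl2fastq 2.19.0 and the build GRCh38. How regions were called, at which threshold, whether total RNA served as input and whether replicates were pooled is not given in the sources used here. Per the file headers, the deposited tables give positions, widths and distances in bp, with each region repeated for every Ensembl transcript. A count-based test per library, planned in case counts were present, could not be made: the tables hold no counts and 0 columns of values per sample.

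Here, 1 entry per region and gene was kept, covered length was summed, regions were compared between lists at an overlap of at least 1 bp, and gene spans came from RefSeq GRCh38.p14. Of 732 named genes, 726 matched RefSeq, 15 through a synonym. Named genes were the 3 genes, RNA processing genes with a region or on chromosome 4 or 10, genes sharing a region with the 3, and the 3 genes nearest to each in covered length. Genes near the 3, genes over the nearest other regions, CELF4, and ANXA5 and LYAR in the comparison at equal covered length were chosen after their values were seen. Members and lists were chosen with earlier results of these data known. Interval functions were tested on simulated data. Python 3.11.15, pandas 2.3.3, numpy 2.4.6 and matplotlib 3.10.9 were used.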

Additional observations from a re-analysis of the deposited data

How the results depend on the processing

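Merging regions up to 1000 bp apart left 1 region each for HNRNPDL and PLRG1, and the widest region alone gave HNRNPDL 3010 bp. Ranked by covered length per kb of gene among protein-coding genes, HNRNPDL stood at 11 and PLRG1 at 41. Measured at the region ends nearest the transcript start and end in place of the midpoint, positions became 0.477 and 0.776 for the 2365 bp HNRNPDL region and 0.0409 and 0.422 for the 3010 bp one, and 0.727 and 0.937 for the wide PLRG1 region. Over every transcript hit, the position of the 2365 bp HNRNPDL region reached 1.02, that of the wide PLRG1 region ran from -0.0455 to 2.13, and that of the narrow one went down to 0.212, since short transcripts rescale the position. On chromosomes 4 and 10 alone, 5 genes of the RNA processing lists had an overexpression region in place of 9. The other 49 alternative values stayed within 1.5 times the value reported or, for positions, within 0.1. Among them were nearest genes, regions over 1 gene, clipped widths, a 50% overlap and a minimum width of 400 bp. Several of these could not move. An overlap count of 0 at 1 bp stays 0 at 50%, a gene without a region in a list stays at 0 on merging, and the single CELF2 region cannot be merged. No paired analysis was possible because the lists hold no value per replicate, and for the same reason no replicate could be left out. Depth is unknown, so a region missing from a list sets no upper limit on binding.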
